A study of Rattus norvegicus with 8 samples.

Results

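The PGC-1 coactivators, the PPAR and ERRalpha nuclear receptors that they serve and a few close partners were followed in livers of weanling rats whose dams had eaten a diet lacking methyl donors. The 10 genes listed were Ppargc1a, Ppargc1b, Nrip1, Sirt1, Ppara, Ppard, Pparg, Rxra, Esrra and Tfam. Probes were taken where the gene name printed for the probe equalled a listed symbol. That gave 9 of the 10 genes, out of 19311 genes with a symbol on the array. They had 11 of the 30367 non-control probes, with a pair of probes each for Ppard and Nrip1. Sirt1 was not analysed here.

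The deficient group was 4 Wistar pups, 2 males and 2 females, born to dams on a diet from which vitamin B12 and folates had been left out (MDD in the labels, for methyl donor deficiency). The control group was 4 Wistar pups, 1 male and 3 females, born to dams on standard food. All pups were 21 days old, and the dams' diets ran from before pregnancy to weaning. The sources used here do not give the pups' own intake, their dams or their litters. Letters in the sample titles are shared within each group, so littermates may be present, and p-values cover the spread between these animals alone. RNA of whole liver was hybridised to 4 Agilent 2-colour arrays on 1 slide, each with 1 deficient and 1 control pup in opposite dyes.

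PGC-1alpha (Ppargc1a) and PGC-1beta (Ppargc1b) are coactivators: they do not bind DNA but dock on nuclear receptors and recruit the enzymes that open chromatin and start transcription. In liver, PGC-1alpha is induced by glucagon and cAMP in fasting and works with PPARalpha on fatty acid oxidation, with HNF4alpha on gluconeogenesis and with ERRalpha on mitochondrial genes, while PGC-1beta also coactivates SREBP in lipid synthesis. ERRalpha (Esrra) is an orphan receptor whose activity is set largely by the PGC-1 proteins. Nrip1, also known as RIP140, is a corepressor of the same receptors, RXRalpha (Rxra) is the obligate dimer partner of the PPARs, and Tfam packages and transcribes mitochondrial DNA.

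The probes of the coactivator genes are shown because the pair are paralogs and their changes are set side by side. In the rn4 build of the array files, the Ppargc1a probe lies at chr14:64365667-64365726 on the plus strand and the Ppargc1b probe at chr18:57280683-57280742 on the minus strand. Laid along each other without gaps, the probes matched at no more than 24 of 58 overlapping bases, and the longest run they shared was 6 bases.
Ppargc1a probe: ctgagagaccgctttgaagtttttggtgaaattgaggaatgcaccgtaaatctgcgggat
Ppargc1b probe: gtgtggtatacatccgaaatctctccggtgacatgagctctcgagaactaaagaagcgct

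The 250 bases before the start of 3 genes are shown, those of both coactivators and of the receptor whose probe had the smallest p of the members. They are RefSeq sequences of the GRCr8 assembly, at chr14:63634058-63634307 (plus strand) for Ppargc1a, chr18:57131467-57131716 (minus strand) for Ppargc1b and chr1:213543306-213543555 (minus strand) for Esrra. Capitals mark a full cAMP response element, TGACGTCA, which starts 181 bases before the Ppargc1a start. This motif, read on both strands, stood in 1.59% of the 33469 promoter windows of the same length.
Ppargc1a: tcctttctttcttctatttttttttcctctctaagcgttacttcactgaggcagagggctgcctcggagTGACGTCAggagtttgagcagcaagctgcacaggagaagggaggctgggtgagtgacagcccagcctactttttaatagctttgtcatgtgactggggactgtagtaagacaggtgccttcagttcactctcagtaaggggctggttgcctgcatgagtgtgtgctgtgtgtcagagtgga
Ppargc1b: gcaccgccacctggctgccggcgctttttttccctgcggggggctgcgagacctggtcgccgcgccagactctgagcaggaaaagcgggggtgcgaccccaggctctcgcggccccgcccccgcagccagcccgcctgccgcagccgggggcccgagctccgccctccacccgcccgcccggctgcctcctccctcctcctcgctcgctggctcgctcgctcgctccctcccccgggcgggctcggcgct
Esrra: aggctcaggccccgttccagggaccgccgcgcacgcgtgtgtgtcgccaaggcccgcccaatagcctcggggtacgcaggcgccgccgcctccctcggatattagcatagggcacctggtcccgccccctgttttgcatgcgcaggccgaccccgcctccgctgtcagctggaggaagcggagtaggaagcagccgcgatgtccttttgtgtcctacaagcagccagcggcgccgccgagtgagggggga
The ERR response element TNAAGGTCA (1.04% of windows), the PPAR direct repeat with a spacer of 1 base (0.0508%), the GABP site ACCGGAAGT (0.95%) and the palindromic NRF1 site (3.75%), also read on both strands, were not among the letters of these 3 windows. Among the other 5 members with a window, that of Tfam held 1 GABP site, 57 bases before its start, and that of Ppara held 1 NRF1 site, 100 bases before its start. The letters are described only, and no binding was measured.

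In deficient livers Esrra was higher than in control livers by 0.47 ± 0.07 on the log2 scale (SE, n = 4 per group; limma adjusted p = 0.00681), a fold of 1.39. Ppargc1b and 1 of the 2 probes of Nrip1 also rose, by 0.30 ± 0.07 and 0.50 ± 0.13, close to the threshold. Ppargc1a, at 0.34 ± 0.10, did not pass the test, nor did Ppara, Ppard, Pparg, Rxra or Tfam. Thus 3 of the 10 tested member probes rose and 0 fell. Over the whole array 1849 of 16669 tested probes were called, or 11.1%, with 4.58% higher and 6.51% lower in deficient livers. Tested probes were those that 4 or more of the 8 samples showed well above background, which 10 of the 11 member probes were in all 8, and a call means a Benjamini-Hochberg adjusted p under 0.05 in limma. All log2 changes below are deficient minus control.

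**Figure D1:**
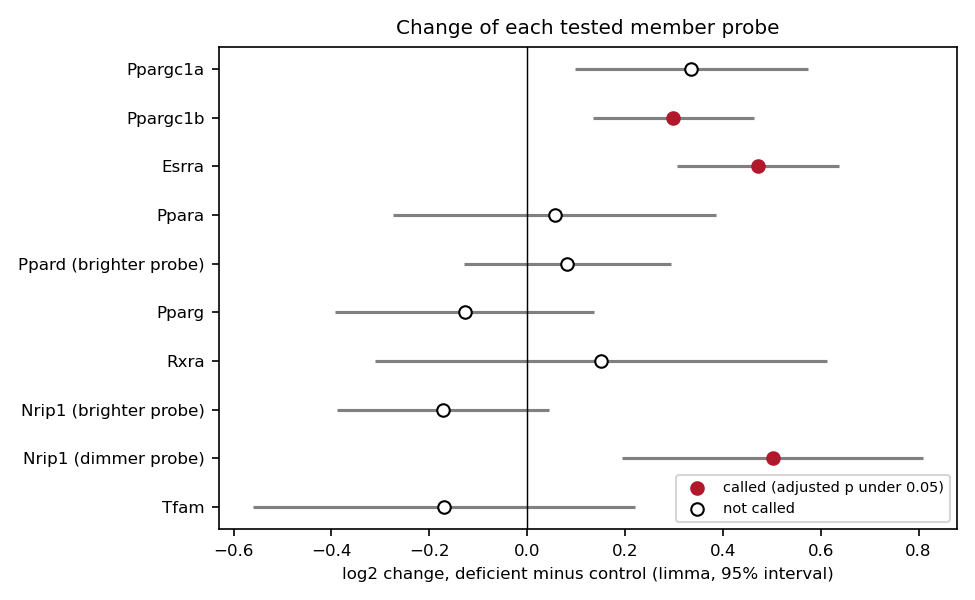
Log2 change of the 10 tested member probes, deficient minus control, with the 95% interval of the limma fit (n = 4 per group) and filled points for called probes. The intervals of the 3 called probes and of Ppargc1a lie above 0, and the other 6 include 0.

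In a sample 59.1% to 65.5% of spots stood well above background, and no spot was saturated. Array 1, with deficient replicate 3 and control replicate 1, stood apart. Its ratios over all tested probes correlated with those of the other arrays at 0.09 to 0.41, while the other 3 correlated among themselves at 0.60 to 0.64 (probes are not independent replicates). Hepatocyte markers were well above background in every sample for 9 of 9 genes, with a summed linear level of 9.22e+05 to 1.33e+06 in deficient livers and 1.36e+06 to 1.66e+06 in control livers, ranges that did not overlap. Of the 9 genes, 4 fell, Ttr (-0.89) and Fgb (-0.74) among them, and 0 rose. The other 5 were not called and included both signs, with Alb at -1.01, Apob at 0.24, Apoa1 at 0.35 and Tat at 0.92. In whole liver, fewer cells of a type and less RNA per cell cannot be told apart. The summed level of 14 skeletal muscle markers was 2.78e+03 to 1.55e+04 in deficient livers and 1.79e+03 to 2.41e+03 in control livers. The highest sum was that of deficient replicate 3, and the other deficient livers reached 3.65e+03. The markers' median log2 ratio was 2.23 on array 1 and between -0.05 and 0.21 on the other 3 arrays. Tnnc2, fast muscle troponin C, was the only called one of 5 tested muscle markers (2.85 ± 0.19, limma adjusted p = 0.000462) and was higher on all 4 arrays, by 3.12, 2.93, 2.57 and 2.78. The muscle sum of every deficient liver was above that of every control, but these sums include Tnnc2. Its log2 intensities were 10.24 to 11.43 in deficient livers and 7.46 to 8.31 in control livers. For the other 4 tested muscle markers, Tnni2, Acta1, Myl11 and Mb, the groups overlapped. With Tnnc2 left out, the sums of the groups overlapped. The sum of control replicate 1 (2.41e+03 with Tnnc2) then lay above that of deficient replicate 2 (2.78e+03 with Tnnc2). Tnnc2 was at 8.31 and 10.24 in these livers. Of 8 adipocyte markers, Lep and Ucp1 were not well above background in any sample and Adipoq was so in 1 control. Their sums overlapped, at 5.68e+03 to 6.94e+03 in deficient livers and 4.48e+03 to 6.54e+03 in control livers, and Cidea was called higher (0.82). Of 4 tested neutrophil markers 3 fell, S100a9 (-0.97), S100a8 (-0.72) and Camp (-0.63), with sums over 6 markers of 1.23e+03 to 1.87e+03 in deficient livers and 1.78e+03 to 2.59e+03 in control livers. Of 8 Kupffer cell markers only Cd14 was called, higher by 1.38, and the other 7 ran from -0.12 to 0.38. Their sums overlapped, at 1.63e+04 to 2.78e+04 in deficient livers and 1.34e+04 to 2.46e+04 in control livers. Of 5 stellate cell markers only Lrat was called, lower (-0.67), and the other 4 ran from -0.23 to 0.13. A second Lrat probe was at -0.27 and not called. The stellate sums also overlapped, at 1.62e+04 to 3.68e+04 in deficient livers and 2.07e+04 to 3.46e+04 in control livers. Among the endothelial and cholangiocyte markers 0 were called. The part of these cell types in the results below was not tested.

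The coactivators come first. Ppargc1a had normalized log2 intensities of 7.42, 7.68, 7.20 and 7.43 in deficient replicates 1 to 4, against 7.24, 6.90, 7.06 and 7.19 in control replicates 1 to 4. Deficient replicate 2 was the highest liver and control replicate 2 the lowest, and the groups overlapped through deficient replicate 3, whose level lay below that of control replicate 1. Means were 7.43 ± 0.20 in deficient livers and 7.10 ± 0.15 in control livers (SD, n = 4 each). The change of 0.34 ± 0.10 had a 95% interval of 0.10 to 0.57 and a limma adjusted p = 0.0747. Within arrays 1 to 4 the ratio was -0.04, 0.36, 0.53 and 0.49, so 3 of 4 pairs had the deficient pup higher and the ratio of array 1 was near 0. Without deficient replicate 3, the pup of array 1 with the highest muscle sum, the limma adjusted p was 0.038 at a change of 0.43, and without array 1 it was 0.0473 at 0.48. Without array 3 the change was 0.19 (limma adjusted p = 0.466) and without control replicate 2 it was 0.22 (limma adjusted p = 0.258).

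Ppargc1b had log2 intensities of 7.99, 7.88, 7.64 and 7.69 in deficient livers, against 7.74, 7.56, 7.41 and 7.31 in control livers. The 2 highest levels belonged to deficient pups and the 3 lowest to controls, and the groups overlapped through control replicate 1. Means were 7.80 ± 0.16 in deficient livers and 7.50 ± 0.19 in control livers (SD, n = 4 each). The rise of 0.30 ± 0.07 had an interval of 0.13 to 0.46, a fold of 1.23 and a limma adjusted p = 0.0351. By array the ratio was -0.10, 0.59, 0.13 and 0.57 on arrays 1 to 4, and array 1 was again the pair without a higher deficient pup. The mean ratio was 0.58 on arrays 2 and 4, where the deficient pup was labelled with Cy5, and 0.02 on arrays 1 and 3, where it was labelled with Cy3. Each group held both dyes equally and dye was a term of the fit. The call was lost in 18 of 27 alternative settings, and with a replicate or array left out it held in 2 of 12, namely without deficient replicate 2 and without array 4. The size of the change ran from 0.24 to 0.54 over the 27 settings. It was largest on the scanner software's processed signals, where Ppargc1a was at 0.68 (not called) and Esrra at 0.52. Ppargc1b passed the threshold and Ppargc1a did not, but their changes were not shown to differ. The difference of their ratios, Ppargc1b minus Ppargc1a, was -0.06, 0.23, -0.40 and 0.08 on the 4 arrays, with a mean of -0.04 ± 0.27 (SD, n = 4 arrays; two-sided exact permutation test by sign flips, p = 0.875, the smallest possible being 0.125).

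**Figure D2:**
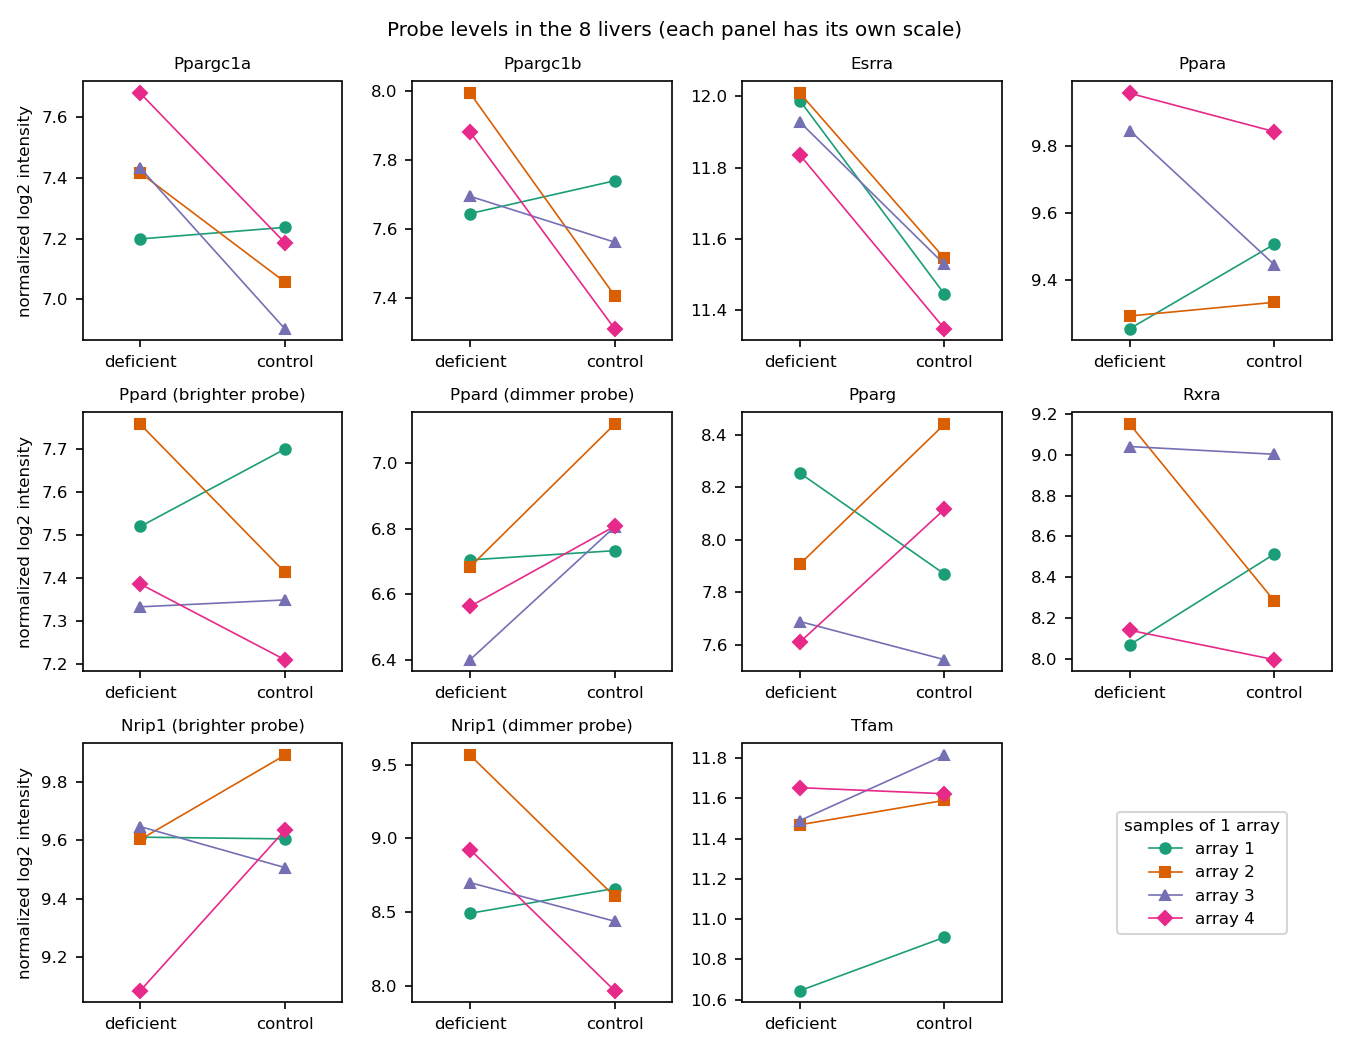
Normalized log2 intensity of each member probe in the deficient (left) and control (right) livers, with lines joining the 2 samples of an array. For Esrra every deficient liver, at 11.84 to 12.01, lies above every control liver, at 11.35 to 11.55, whereas the tested probes of the other members overlap.

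Nrip1, the corepressor, had 2 probes whose values went different ways. The dimmer probe, at chr11:15071084-15071143 on the minus strand (rn4), had log2 intensities of 9.56, 8.92, 8.49 and 8.70 in deficient livers, against 8.66, 8.44, 8.61 and 7.97 in control livers. Deficient replicate 1 was far above the rest and control replicate 4 far below, and the groups overlapped. The rise was 0.50 ± 0.13 (interval 0.19 to 0.81, limma adjusted p = 0.0484), with ratios of -0.17, 0.96, 0.26 and 0.96 on arrays 1 to 4. By dye, the mean ratio was 0.96 with the deficient pup in Cy5 and 0.05 with it in Cy3. This call was lost in 19 of 26 alternatives and held with a replicate or array left out in 3 of 12, namely without deficient replicate 2, without deficient replicate 3 and without array 2.

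The brighter Nrip1 probe, at chr11:15073726-15073785 on the same strand, starts 2642 bases from the dimmer one. Its log2 intensities were 9.60, 9.09, 9.61 and 9.65 in deficient livers, against 9.60, 9.51, 9.89 and 9.63 in control livers. Deficient replicate 2 lay below all other livers, and the rest of the groups overlapped. The change was -0.17 ± 0.10 (interval -0.39 to 0.04, limma adjusted p = 0.278). The dimmer minus the brighter probe gave differences of -0.17, 1.25, 0.12 and 1.504 on the 4 arrays, a mean of 0.67 ± 0.82 (SD; two-sided exact permutation test by sign flips, p = 0.375), a comparison chosen after the values were seen. In the probe letters, the dimmer probe had 1 reading frame without a stop codon and the brighter probe had a stop codon in all 3. Whether they measure the same transcripts was not tested.

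Among the receptors Esrra stood out. Its single probe, at chr1:209587731-209587790 on the minus strand (rn4), had log2 intensities of 12.01, 11.84, 11.99 and 11.93 in deficient livers, against 11.45, 11.53, 11.55 and 11.35 in control livers. All deficient livers lay above all control livers, a pattern without overlap that 5.48% of tested probes had in this direction. Means were 11.94 ± 0.08 in deficient livers and 11.47 ± 0.09 in control livers (SD, n = 4 each), and the interval of the rise was 0.31 to 0.64. Ratios were 0.54, 0.46, 0.40 and 0.49 on arrays 1 to 4, so array 1 showed as large a ratio as the others. The mean ratio was 0.47 with the deficient pup in Cy5 and 0.47 with it in Cy3. By p-value the probe ranked 332 of the 16669 tested. Without deficient replicate 3, which had the highest muscle sum, the change was 0.45 with a limma adjusted p = 0.0183.

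The array design prints this Esrra probe at 10 spots per array, so that the ratio could be read repeatedly in the same samples. These spots are technical repeats and add no animals. Every other member probe had 1 spot per array, so its levels were not averaged over spots as those of Esrra were. The part of this in the smaller spread of Esrra was not tested. After spots marked as outliers were left out, the deficient channel was the brighter in 10 of 10 spots on each of arrays 1, 2 and 3 and in 8 of 8 on array 4. The spot ratios had an SD of 0.01 to 0.04 within an array, although the levels themselves varied from spot to spot with an SD of 0.17 to 0.44. On array 4 different spots had been left out in each channel. With such spots left out of both, that array's mean spot ratio was 0.56 and the change of Esrra was 0.49 (limma adjusted p = 0.00511). The call was lost in 4 of 27 alternatives: without array 3 (limma adjusted p = 0.0692), in females only (0.167), with median centring in place of loess (0.216) and in a fit of the within-array ratios (0.0525).

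**Figure D3:**
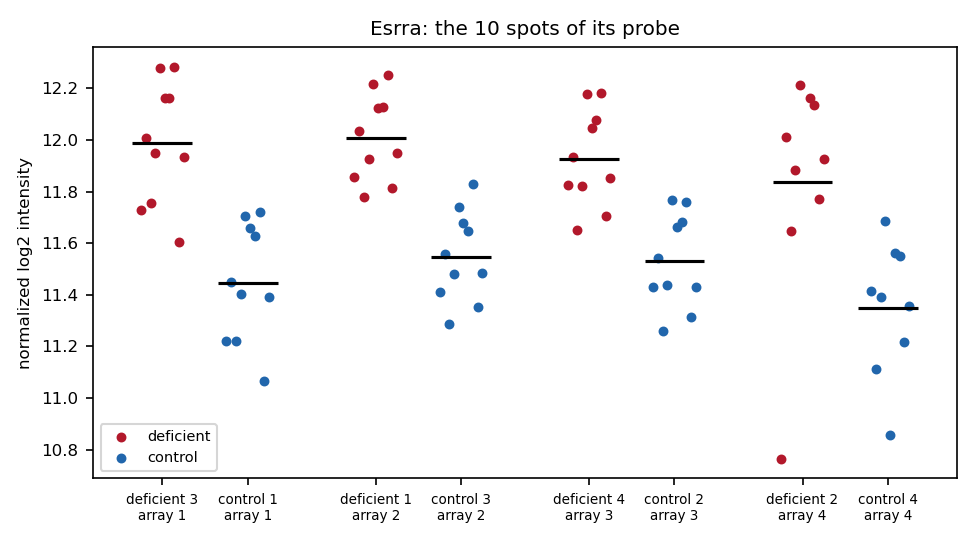
Normalized log2 intensity of each spot of the Esrra probe in the 8 samples, ordered by array with the deficient sample left of its control, and bars for the sample mean. Sample means run from 11.84 to 12.01 in deficient and from 11.35 to 11.55 in control livers, and 1 low spot of deficient replicate 2 lies at 10.77.

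Ppara encodes PPARalpha, the receptor for fatty acids that drives their oxidation in liver. Its probe (chr7:123807031-123807090, plus strand) had log2 intensities of 9.29, 9.96, 9.25 and 9.85 in deficient livers, against 9.51, 9.45, 9.33 and 9.84 in control livers. The deficient pups formed a higher and a lower pair, the higher pair being the males, and the controls lay within that range. The change was 0.06 ± 0.15 (interval -0.27 to 0.39, limma adjusted p = 0.834), with ratios of -0.25, -0.04, 0.40 and 0.12 by array, and its sign turned in 8 of 27 alternatives. That interval includes a rise as large as the one of Ppargc1b.

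Ppard encodes PPARdelta, a more widely expressed relative. The brighter of its probes (chr20:6543425-6543484, plus strand) had log2 intensities of 7.76, 7.39, 7.52 and 7.33 in deficient livers, against 7.70, 7.35, 7.41 and 7.21 in control livers. The groups overlapped nearly fully, with a change of 0.08 ± 0.09 (interval -0.13 to 0.29, limma adjusted p = 0.612). The dimmer probe (chr20:6542932-6542991) was well above background only in deficient replicate 3 and control replicate 3 and was not tested. It read 6.68, 6.56, 6.71 and 6.40 in deficient livers and 6.73, 6.81, 7.12 and 6.81 in control livers, where the lowest signals well above background in a sample were 5.51 to 6.80, so that no change is given. These deficient levels all lay below the control levels. Among tested probes 5.88% had that pattern in this direction, but this dim probe was not one of them.

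Pparg, encodes PPARgamma, the receptor best known for adipocyte formation. Its probe (chr4:151617128-151617187, plus strand) had log2 intensities of 7.91, 7.61, 8.25 and 7.69 in deficient livers, against 7.87, 7.54, 8.44 and 8.12 in control livers. Both groups spread widely, and the change was -0.13 ± 0.12 (interval -0.39 to 0.14, limma adjusted p = 0.519), with ratios of 0.38 and 0.15 on arrays 1 and 3 and of -0.53 and -0.51 on arrays 2 and 4. The 2 positive ratios were those of the arrays with the deficient pup in Cy3, and the 2 negative ones those with it in Cy5. In 7 of the 10 tested member probes, namely those of Ppargc1b, Pparg, Rxra and Tfam, the brighter one of Ppard and both of Nrip1, the ratios of the 2 dye orientations did not overlap. The share over all tested probes was 48.5%.

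Rxra (chr3:6678240-6678299, plus strand) had log2 intensities of 9.15, 8.14, 8.07 and 9.04 in deficient livers, against 8.51, 9.002, 8.28 and 7.996 in control livers. High and low livers occurred in both groups, and the change of 0.15 ± 0.20 (interval -0.31 to 0.61, limma adjusted p = 0.672) was the least precise of the 10. Its ratio was 0.87 on array 2 against -0.44 on array 1, and without array 2 the change was -0.03.

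Tfam (chr20:18112519-18112578, plus strand) had log2 intensities of 11.47, 11.65, 10.65 and 11.49 in deficient livers, against 10.91, 11.81, 11.59 and 11.62 in control livers. The low liver of each group, deficient replicate 3 and control replicate 1, shared array 1. The change was -0.17 ± 0.17 (interval -0.56 to 0.22, limma adjusted p = 0.562), with ratios of -0.27, -0.12, -0.32 and 0.03 by array.

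**Figure D4:**
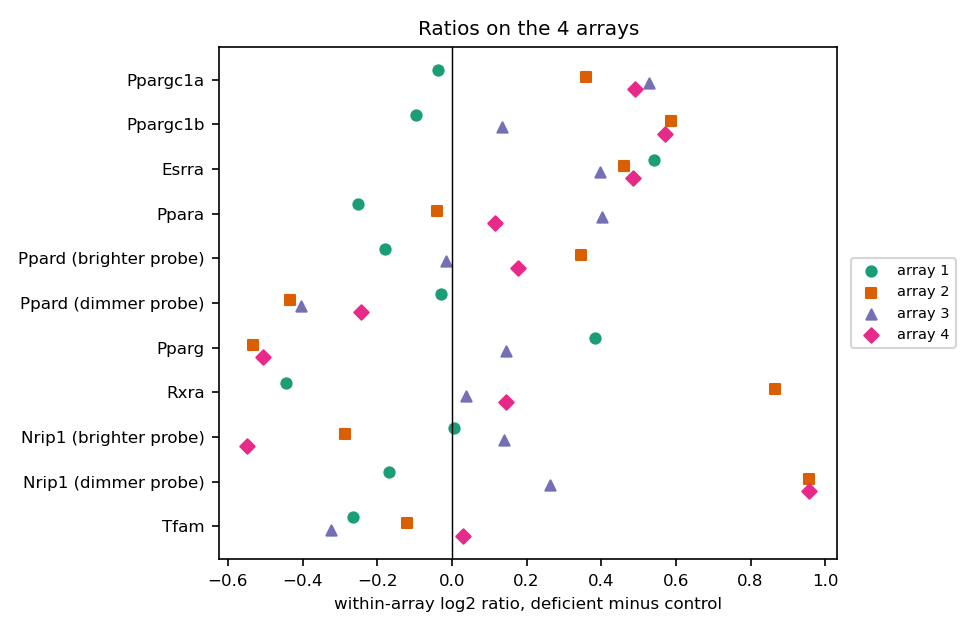
Within-array log2 ratio, deficient minus control, of each of the 11 member probes on the 4 arrays. The Esrra ratios lie between 0.40 and 0.54, those of Ppargc1a and Ppargc1b are near 0 on array 1 and positive on the other arrays, and the dimmer Ppard probe was not well above background in most samples.

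The genes that these regulators control were counted next, by the brightest probe of each gene. Of 37 measured targets of PPARalpha, 19 rose and 0 fell, against 4.9% higher and 7.54% lower among the 11387 genes with a symbol. The lists were chosen with earlier results of these data known, so the counts are a description and not a test. The list's median change was 0.62 and that of all genes -0.01. Medians on arrays 1 to 4 were 0.34, 0.53, 0.78 and 1.05, so the smallest was that of array 1. The ratios of all probes also spread least on array 1, with an SD of 0.31 against 0.40 to 0.57 on the other arrays. Without array 3 the count was 9, in females only 1, with median centring 10 and without the array as a block 9. Over all 16669 tested probes, 764 were called higher in the main fit. In the same settings that number was 111, 15, 140 and 177.

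Cpt1b, the muscle form of the enzyme that links fatty acids to carnitine for entry into mitochondria, had log2 intensities of 12.69, 12.66, 10.39 and 12.47 in deficient livers, against 8.09, 8.57, 8.05 and 8.61 in control livers. It rose by 3.73 ± 0.32 (limma adjusted p = 0.000983). Deficient replicate 3, the liver with the highest muscle sum, was the lowest deficient liver for this gene. The part of muscle tissue in this rise was not tested. Vnn1, which releases pantothenate and cysteamine, had 12.69, 12.73, 11.69 and 12.85 in deficient livers, against 10.38, 10.22, 10.12 and 10.34 in control livers, a rise of 2.23 ± 0.20 (limma adjusted p = 0.000983). Fgf21, a fasting hormone of liver, had 11.61, 11.36, 10.50 and 11.21 in deficient livers, against 10.14, 8.73, 8.33 and 8.24 in control livers, a rise of 2.31 ± 0.28 (limma adjusted p = 0.00291). Slc27a2, an acyl-CoA synthetase and fatty acid transporter, rose by 0.77 ± 0.09 (limma adjusted p = 0.00291). In each of these 4 genes the groups did not overlap and deficient replicate 3 was the lowest deficient liver. Among the 18 targets without a call, the lowest was Angptl4, an inhibitor of lipoprotein lipase, at -0.34 ± 0.16. Second probes of Acot2, Acot4 and Hadha were called higher as their brightest ones were, whereas Acaa1a was called only on a dimmer probe (0.69, limma adjusted p = 0.0316) and not on the brightest (0.11).

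Mitochondrial genes known as targets of ERRalpha and the PGC-1 coactivators had 2 of 26 members higher and 0 lower, with a median of 0.09. That share of calls is near the background of all genes. At an unadjusted p under 0.05 in limma, 8 of the 26 were higher and 1 was lower. Over all 11387 genes with a symbol, 1412 were higher and 1883 lower at that threshold. Slc25a4, the ADP/ATP carrier form of heart and muscle, had log2 intensities of 13.67, 13.48, 12.35 and 13.50 in deficient livers, against 10.97, 11.08, 11.35 and 11.93 in control livers. It rose by 1.92 ± 0.24 (limma adjusted p = 0.00346), and every deficient liver lay above every control. Cs, citrate synthase, was at -0.26 ± 0.07 and Sdhb, of succinate dehydrogenase, at 0.32 ± 0.09, neither called (limma adjusted p = 0.0567 and 0.0573). The count of higher genes was 1 without control replicate 2, control replicate 3 or array 3, 4 without deficient replicate 2 or array 4, and 5 without deficient replicate 3. Of lower genes there was 1 without deficient replicate 1 and there were 2 without deficient replicate 2.

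Of 9 genes listed for the work of PGC-1alpha in the fasting liver, 0 rose and 2 fell, with a median of -0.07. The list also holds the transcription factors Hnf4a and Foxo3. Over all genes with a symbol 4.9% were higher and 7.54% lower. Slc37a4, the glucose 6-phosphate transporter, had 13.40, 13.60, 14.26 and 13.42 in deficient livers, against 14.93, 15.05, 15.16 and 15.08 in control livers, a fall of 1.38 ± 0.15 on the log2 scale (limma adjusted p = 0.00229). The other was Cyp7a1, which makes bile acids and not glucose, at -2.58 ± 0.31 (limma adjusted p = 0.00291). Pc, pyruvate carboxylase, was at 0.34 ± 0.10 and Hnf4a at -0.16 ± 0.10, neither called (limma adjusted p = 0.0727 and 0.332). Pck1 and G6pc1, the enzymes at each end of gluconeogenesis, were singled out after their values were seen. The ratios of Pck1 were -1.62 on array 1 and 0.75, 1.78 and 0.76 on the other arrays, and those of G6pc1 were -0.95 on array 1 and 0.84, 1.07 and 0.53 on the others. Neither was called (0.42 ± 0.50 and 0.37 ± 0.50, limma adjusted p = 0.632 and 0.669). A single gene of this list was called higher without deficient replicate 2, without deficient replicate 3 or without array 1.

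In mitochondrial DNA transcription and replication, the field of Tfam, 1 of 15 genes rose and 2 fell, with a median of -0.07. The shares over all genes were 4.9% higher and 7.54% lower. Polg2, the accessory subunit of the mitochondrial DNA polymerase, had 11.01, 11.21, 11.65 and 11.22 in deficient livers, against 12.18, 12.29, 12.50 and 12.38 in control livers, and fell by 1.07 ± 0.10 on the log2 scale (limma adjusted p = 0.0017). Polrmt, the mitochondrial RNA polymerase, was at -0.32 ± 0.08 and Nrf1, a transcription factor for Tfam and respiratory genes, at 0.27 ± 0.07 (limma adjusted p = 0.0463 and 0.0438). A second Nrf1 probe at 0.29 was not called (limma adjusted p = 0.327). Gabpa, of the GABP factor, was at -0.23 ± 0.08 (limma adjusted p = 0.0942). With a replicate or array left out, 1 gene was called higher in 3 of 12 settings (without deficient replicate 2, deficient replicate 3 or array 4) and 0 in the other 9, and between 1 and 3 were called lower.

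Partner receptors and coregulators had 1 of 25 genes higher and 2 lower, against 4.9% and 7.54% of all genes, with a median of 0.05. Nr1h4, the bile acid receptor FXR, had 11.79, 12.49, 12.60 and 12.13 in deficient livers, against 13.13, 12.81, 13.32 and 13.03 in control livers, and its change was -0.82 ± 0.15 (limma adjusted p = 0.0129). Its second probe was at -0.34 (limma adjusted p = 0.0966). Nr1h2, the oxysterol receptor LXRbeta, rose by 0.41 ± 0.08 (limma adjusted p = 0.0173), and the repressor Nr1d1, REV-ERBalpha, was at -0.47 ± 0.11 (limma adjusted p = 0.0352). Ep300, an acetyltransferase that PGC-1alpha recruits, was at 0.38 ± 0.13 and not called (limma adjusted p = 0.101). With a replicate or array left out, the number called higher ran between 0 and 5 and the number lower between 0 and 2, both at 0 without array 3, without control replicate 3 or without deficient replicate 4.

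**Figure D5:**
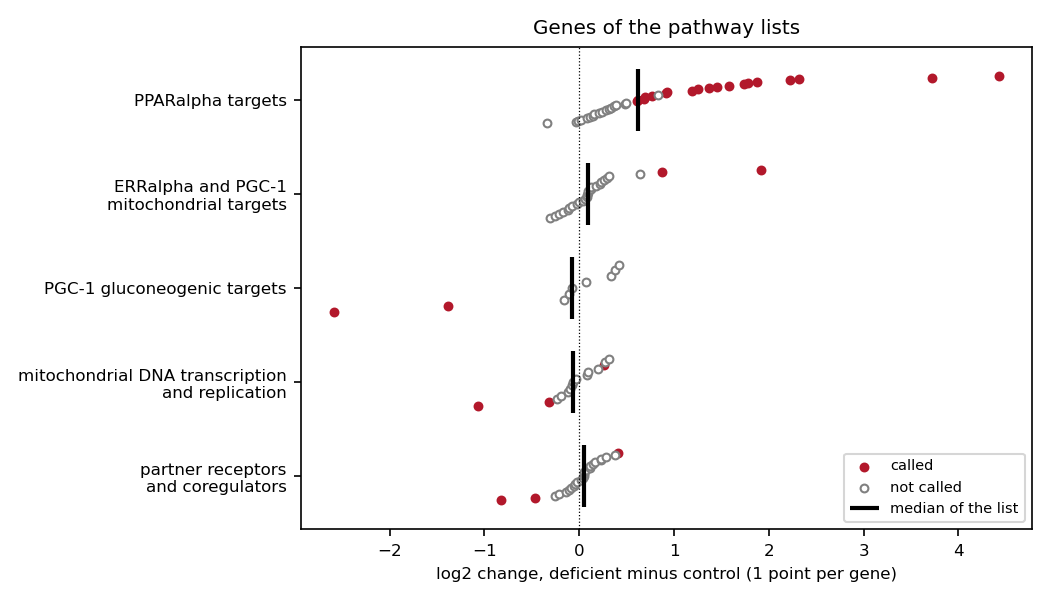
Log2 change, deficient minus control, of every measured gene in the 5 pathway lists, 1 point per gene by its brightest probe, filled where called, with a bar at the list's median. The median of the PPARalpha targets is 0.62, and those of the other 4 lists lie between -0.07 and 0.09.

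The genes whose 4 array ratios lay nearest to a member's, by root mean square difference over 11382 genes, are given as a description over 4 pairs of animals. For Ppargc1a these were Gopc (0.05), Nr1d2 (0.05), the clock repressor REV-ERBbeta, and Acot12 (0.07), a thioesterase for acetyl-CoA. For Ppargc1b they were Higd2a, a respiratory chain assembly factor, Ctps2, a CTP synthase, and Cox4i2, a subunit of cytochrome c oxidase, at 0.05 to 0.06. For Esrra they were Dnase2, a lysosomal nuclease (0.04), Irak1bp1 (0.05) and Flvcr2 (0.06). Within 0.1 there were 12 genes for Ppargc1a, 33 for Ppargc1b and 8 for Esrra.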

How the data were processed

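Liver RNA of 8 rats was measured on 4 Agilent 2-colour arrays. Each deposited file holds 1 array's spot intensities, which the authors extracted using Agilent Feature Extraction 10.7.1.1 (submitters' processing notes). Dyes follow the labels, and samples with identical deposited array data were taken to share an array. A table of normalized intensities, deposited by the authors with no stated method, served only as an alternative.

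The members and gene lists were chosen with earlier results of these data known. In R 4.3.3 with limma 3.58.1, 74 spot values with local background over 5 times the channel median were left out, a limit set in earlier processing of these data. Mean signals were corrected by normexp (offset 50), normalized by loess and Aquantile to log2 intensities, and averaged over the 42877 non-control spots per probe after outlier spots were dropped. The 1377 control spots were left out. Diet was fitted over all 16669 tested probes with lmFit and eBayes, dye as a term and array as a block (correlation 0.419), with Benjamini-Hochberg adjustment at 0.05. A gene was read from its brightest probe, and symbols of 3795 probes were updated through RefSeq. The fit was checked on simulated data. The number of arrays limits the precision, and slide was shared by all.

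The genes named were all members, the up to 4 measured genes of each pathway list with the smallest p, and the 3 genes with array ratios nearest to those of Ppargc1a, Ppargc1b and Esrra. Some genes of the lists are counted but not reported here by name. Alternatives changed the background correction, normalization, filter, probe choice, model, source and samples. Leaving outlier spots out of both channels and the comparison of the Nrip1 probes were added after seeing the data. Figures were drawn with matplotlib 3.10.9.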

Additional observations from a re-analysis of the deposited data

Results flagged for a closer look

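The brighter Nrip1 probe read 9.09 in deficient replicate 2, while the nearest of the other deficient livers read 9.60. This gap was 0.921 of the range of the 4 deficient livers, above Dixon's critical value at the 95% level. It was 1 of 22 groups of 4 livers examined for the 11 member probes, and chance alone marks about 1 in 20. The dimmer Nrip1 probe read 8.92 in the same liver, between the other deficient livers. The cause was not tested.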

How the results depend on the processing

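The number of called probes was 1849 as reported. It was 1041 with high-background spots kept, 1207 on the scanner software's processed signals, 337 with median centring, 524 on within-array ratios, 411 without the array block, 891 without the dye term, 905 with sex as a term, 3215 with sample weights and 43 in females only. With a replicate or array left out it ran from 241 (without array 3) to 3901 (without deficient replicate 2). The 3 called member probes became 1 with high-background spots kept, without the array block, without the dye term, with sex as a term and in the authors' deposited normalized table. They became 0 with median centring, on within-array ratios and in females only, and ran from 0 to 3 with a replicate or array left out. Ppara turned to -0.031 with high-background spots kept, to -0.028 with sex as a term, to -0.045 with median centring and to -0.21 in females only, and ran from -0.11 to 0.22 with a replicate or array left out. Pparg turned to 0.12 in females only. Rxra turned to -0.001 in females only and ran from -0.047 to 0.37 with a replicate or array left out. The difference of Ppargc1b minus Ppargc1a turned to 0.059 with high-background spots kept. The cause was not tested. In females only the array correlation of the 8 samples was used, since it could not be estimated there. No paired analysis was possible by replicate number because these numbers follow the order of the samples and pair no animals. Pairing by array is the block of the fit, and the fit of within-array ratios given above is the paired one.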

Other observations

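The effect of the diet was also compared between the sexes for the 10 tested member probes, as the change in males minus the change in females, with 1 male control. None was called, and 1 had an unadjusted p under 0.05 in limma. That was Tfam, at 1.35 ± 0.36 (SE; limma adjusted p = 0.472). Both low Tfam livers, a deficient female and the male control, lay on array 1, and with 1 male control the parts of array and sex cannot be told apart.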
